A study of Mus musculus with 2 samples.

Results

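The genes described here are the amino acid and peptide carriers of cultured mouse intestinal stem cells, in 1 library labelled Stat6 knockout (KO) and 1 labelled wild type (WT). They were taken by symbol, as every listed gene of the solute carrier families Slc1, Slc3, Slc6, Slc7, Slc15, Slc36, Slc38 and Slc43 whose symbol ends in a number. That rule gave 57 of the 18944 genes in both tables. Both cultures carried the Lgr5GFP-CreERT2 allele, which puts the reporter GFP and a drug-inducible Cre under Lgr5, and both came from mice aged 2 months. Both grew in a medium with epidermal growth factor, R-spondin 1 and the inhibitor Y27632. Per the labels, cells were infected with lentivirus carrying CRISPR/Cas and guide RNAs against Stat6, and deficient cells were obtained by screening. The same text stands under both samples, so the labels do not tell what virus, if any, the WT culture received or whether the KO culture was 1 clone.

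Transcript levels are FPKM, a read count divided by transcript length and by the library's mapped reads, so levels of different genes can be set side by side. With 1 library per genotype no difference below has a replicate check and none carries a p-value. STAT6 is the transcription factor that carries signals of the cytokines IL-4 and IL-13 to the nucleus. Its gene (Stat6, Entrez gene 20852) was at 44.2 FPKM in KO and 41.3 FPKM in WT. A CRISPR-made frameshift can leave the amount of RNA as it was, and the genotype here rests on the label alone. The stem cell marker Lgr5 was at 1.88 FPKM in KO and 1.79 FPKM in WT, far below enterocyte genes such as the fatty acid-binding protein gene Fabp1, at 7580 FPKM in KO and 2173 FPKM in WT. Both cultures therefore held abundant transcripts of differentiated cells beside those of the labelled cell type. The step size of low values of short RNA genes corresponded to about 20200000 reads in KO and 19900000 reads in WT. The labels give a mean of 59000000 sequenced reads per sample, and the reads that FPKM was divided by, as estimated here, were fewer.

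Dietary protein reaches the absorptive enterocyte as free amino acids and as di- and tripeptides. Carriers in the apical brush border bring them in against their gradients, coupled to sodium or protons or by exchange, and carriers in the basolateral membrane release them to the blood or exchange them with it. Dividing crypt cells take up amino acids for their own growth, largely through exchangers and sodium-coupled carriers that many proliferating cells use. Several of the Slc7 carriers are light chains that reach the membrane only when bound to a heavy chain of the Slc3 family.

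Among the 57 carriers, 35 reached 1 FPKM in KO, in WT or in both and are called measured. The difference used, here the log2 ratio, is log2((KO FPKM + 1)/(WT FPKM + 1)). A gene counts as higher or lower at a 2-fold difference on that scale. In KO, 8 of the 35 measured carriers were at least 2-fold higher, or 22.9%, beside 2.44% of all 12079 measured genes. None of the 35 was at least 2-fold lower, beside 2.18% of all measured genes. The 8 were Slc6a19, Slc43a2, Slc15a1, Slc3a1, Slc7a15, Slc7a9, Slc7a8 and Slc6a4. The difference lay in a subset of the carriers, since the median log2 ratio of the 35 was -0.16 and that of all measured genes was -0.18. With the trimmed mean of log ratios (TMM) as scaling, which moved the median of all genes to -0.02, the median of the carriers was 0.01. Of the measured carriers 31 reached 1 FPKM in both libraries, 2 in KO alone (Slc7a15 and Slc1a3) and 2 in WT alone (Slc1a2 and Slc15a3), and a gene that passes in 1 library only is bound to differ. Exons of 12 of the 35 share bases with a gene on the opposite strand in the GENCODE M21 annotation, among them Slc3a1 and Slc43a2, and the labels do not say whether counting used strand, so shared reads cannot be told apart.

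**Figure D1:**
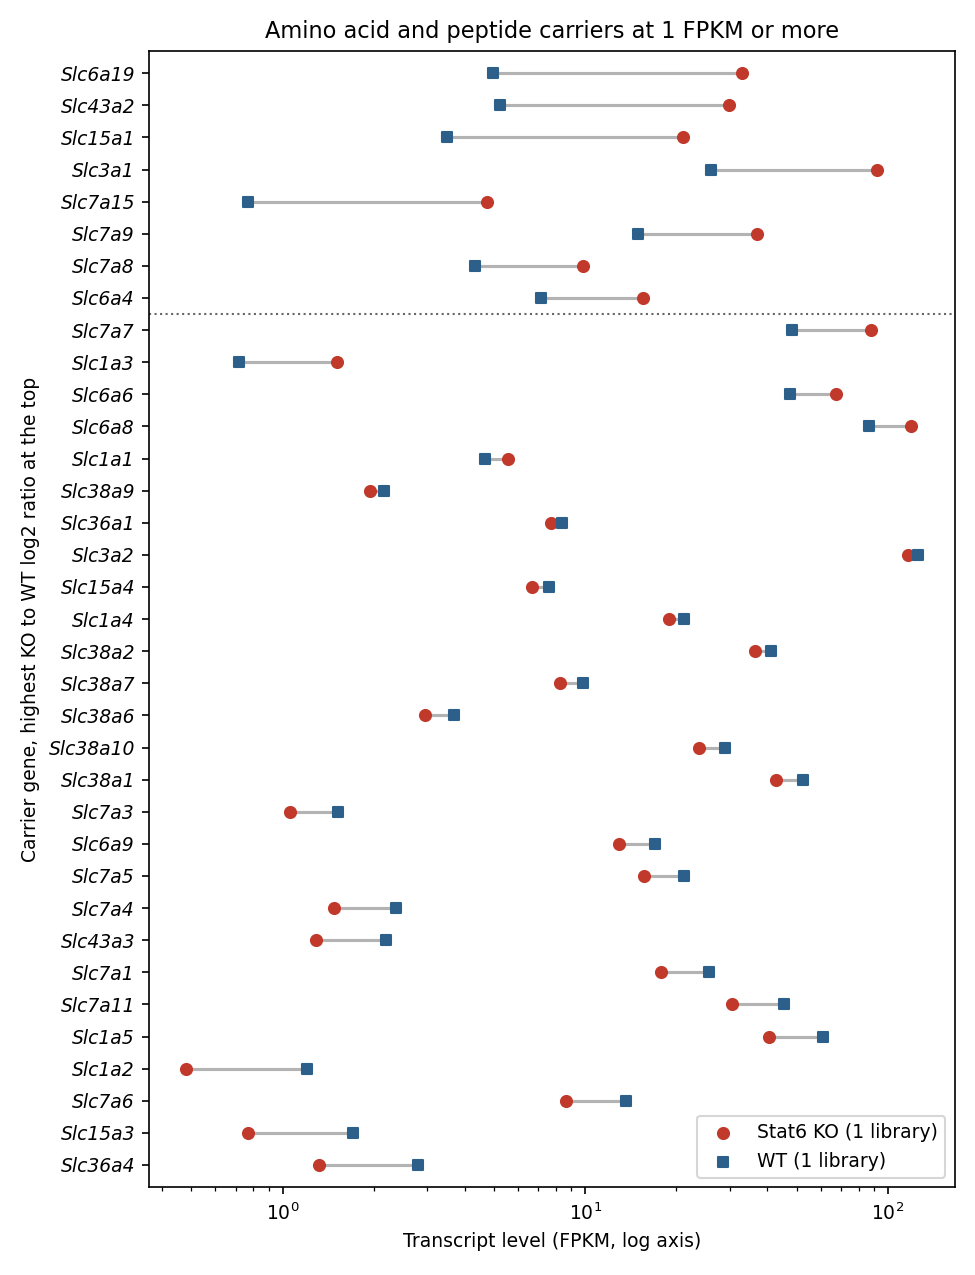
Level of each of the 35 measured carriers in FPKM on a log axis, with circles for the KO library and squares for the WT library. The 8 carriers above the dotted line are those past 2-fold in KO. Slc6a19 at the top was at 32.9 FPKM in KO and 4.94 FPKM in WT.

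Of the 4 highest log2 ratios 3 belonged to apical carriers of the brush border. Slc6a19 (Entrez gene 74338), which encodes B0AT1, the main sodium-coupled carrier of neutral amino acids in the brush border, was at 32.9 FPKM in KO and 4.94 FPKM in WT. Its log2 ratio of 2.51 was the 18th highest of all measured genes. Counting error alone, from the estimated reads, gave a 95% interval of 6.01 to 7.41 for its KO to WT fold of 6.67, and these intervals say nothing of differences between cultures. Slc15a1 (Entrez gene 56643), which encodes PepT1, the proton-coupled carrier of di- and tripeptides, was at 21.0 FPKM in KO and 3.50 FPKM in WT. Its log2 ratio was 2.29, with a fold of 6 and a counting interval of 5.19 to 6.93.

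The exchanger that takes up cystine and basic amino acids consists of the heavy chain rBAT and the light chain b0,+AT, and both of its genes were among the 8. Slc3a1 (Entrez gene 20532), the gene of rBAT, was at 92.3 FPKM in KO and 26.0 FPKM in WT, a log2 ratio of 1.79 with a counting interval of 3.33 to 3.79 for the fold of 3.55. On the opposite strand Prepl, a gene that overlaps exons of Slc3a1, was at 15.1 FPKM in KO and 17.5 FPKM in WT. Slc7a9 (Entrez gene 30962), the gene of b0,+AT, was at 36.9 FPKM in KO and 15 FPKM in WT, a log2 ratio of 1.24. The heavy chain transcript was the more abundant of the pair in both libraries, at 2.50 times the light chain in KO and 1.73 times in WT.

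The other apical carriers were not past 2-fold or stayed below the minimum. Slc1a1, the gene of the sodium-coupled glutamate and aspartate carrier EAAT3, was at 5.54 FPKM in KO and 4.68 FPKM in WT, a log2 ratio of 0.20. Slc36a1, the gene of the proton-coupled carrier PAT1 of glycine, alanine and proline, was at 7.73 FPKM in KO and 8.37 FPKM in WT. Its log2 ratio of -0.10 became 0.06 with the TMM factor. Slc1a5, the gene of the exchanger ASCT2 of glutamine and other neutral amino acids, was at 40.6 FPKM in KO and 60.9 FPKM in WT, a log2 ratio of -0.57 and the lowest of the apical list. Slc6a14, which encodes the broad carrier ATB0,+, stayed below the minimum, at 0.29 FPKM in KO and 0.07 FPKM in WT, or about 20 reads in KO and 5 in WT.

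Genes that work with these carriers, taken from a list of 8 partners, were also compared. Tmem27, a membrane protein that serves B0AT1 in the kidney, was at 0.64 FPKM in KO and 0.57 FPKM in WT. Anpep, the brush-border aminopeptidase N that releases amino acids from peptides, was at 1223 FPKM in KO and 498 FPKM in WT (log2 ratio 1.29). Slc6a20a, the gene of a proline carrier whose symbol ends in a letter and which is therefore not among the 57, was at 23.5 FPKM in KO and 3.79 FPKM in WT (log2 ratio 2.36). Its relative Slc6a20b was at 0.14 FPKM in KO and 0.07 FPKM in WT, and reads the copies share could be split between them.

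The apical sodium-proton exchanger gene Slc9a3, whose protein supplies the protons that drive PepT1, did not share this difference. It was at 9.11 FPKM in KO and 11.1 FPKM in WT, a log2 ratio of -0.26. A pair of lysosomal partners lay close to their WT level. Ctns, the cystine exporter, was at 10.3 FPKM in KO and 9.87 FPKM in WT. The other was the exporter of basic amino acids listed as Pqlc2, at 8.94 FPKM in KO and 10.1 FPKM in WT. In KO, 3 of the 6 partners measured were past 2-fold upward and none downward, beside 2.44% and 2.18% of all measured genes. Anpep, which is among the 3, is also counted among the enterocyte markers below.

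The basolateral carriers were divided. Slc43a2 (Entrez gene 215113), which encodes LAT4, a facilitated carrier of branched-chain amino acids, methionine and phenylalanine, was at 29.8 FPKM in KO and 5.23 FPKM in WT. Its log2 ratio of 2.30 was the 31st highest of all measured genes, with a counting interval of 5.26 to 6.16 for the fold of 5.69. Slc7a8 (Entrez gene 50934), the gene of the neutral amino acid exchanger LAT2, was at 9.83 FPKM in KO and 4.33 FPKM in WT, a log2 ratio of 1.02 and so just past 2-fold. Slc7a7 (Entrez gene 20540), the gene of y+LAT1, which exports basic amino acids in exchange for neutral ones, lay just short of it. It was at 88.2 FPKM in KO and 48.3 FPKM in WT, and its log2 ratio of 0.86 became 1.04 under TMM scaling. Oxa1l, which overlaps exons of Slc7a7 on the opposite strand, was at 23.7 FPKM in KO and 24.4 FPKM in WT. Slc16a10, the gene of the aromatic amino acid carrier TAT1 and one of the partners, was at 17.1 FPKM in KO and 7.41 FPKM in WT (log2 ratio 1.11).

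The remaining measured basolateral carriers had log2 ratios below 0, and none was past 2-fold. Slc7a6, the gene of y+LAT2, was at 8.67 FPKM in KO and 13.7 FPKM in WT (-0.60). Slc7a1, the gene of the arginine and lysine carrier CAT1, was at 17.8 FPKM in KO and 25.7 FPKM in WT (-0.50). Slc7a5, the gene of the large neutral amino acid exchanger LAT1, was at 15.6 FPKM in KO and 21.1 FPKM in WT (-0.42). For Slc38a2, the gene of the sodium-coupled carrier SNAT2, and Slc3a2, the gene of the heavy chain 4F2hc, the sign depended on the scaling. Slc38a2 was at 36.5 FPKM in KO and 41.2 FPKM in WT, and Slc3a2 at 117 FPKM in KO and 126 FPKM in WT. Their log2 ratios were -0.17 and -0.11 as deposited, and 0.01 and 0.08 with the TMM factor. Slc38a3, the gene of the glutamine carrier SNAT3, stayed below the minimum at 0.53 FPKM in KO and 0.12 FPKM in WT.

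By membrane, at least a 2-fold higher level in KO was seen for 4 of 7 measured apical carriers and for 2 of 8 measured basolateral ones. Of all measured genes 2.44% were as much higher. The median log2 ratio was 1.24 for apical and -0.14 for basolateral carriers, a difference of 1.38, and the basolateral median was 0.04 with the TMM factor. The ranges overlapped over most of their length, from -0.57 to 2.51 for apical and from -0.60 to 2.30 for basolateral carriers. When the lists were narrowed to the carriers best known from enterocytes, the medians were 1.79 over 5 apical and 0.94 over 4 basolateral genes, a difference of 0.85. The narrow apical list held Slc1a1, Slc3a1, Slc6a19, Slc7a9 and Slc15a1, and the narrow basolateral list Slc3a2, Slc7a7, Slc7a8 and Slc43a2. Left out among measured genes were the apical Slc1a5 and Slc36a1 and the basolateral Slc7a1, Slc7a5, Slc7a6 and Slc38a2. All of these had negative log2 ratios as deposited, so both medians rose through the choice of genes. The lists were chosen with earlier results of these data known. Summed over the 8 apical carriers listed, the level was 237.2 FPKM in KO and 123.4 FPKM in WT, and over the 9 basolateral carriers 323.7 FPKM in KO and 285.6 FPKM in WT.

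**Figure D2:**
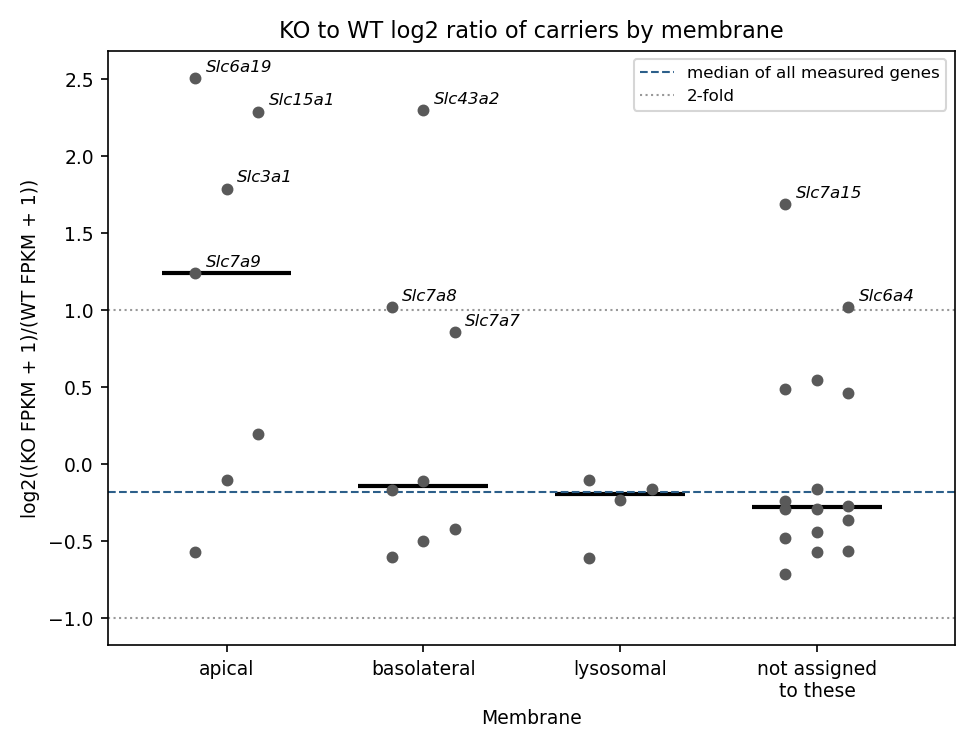
Log2 ratio of KO to WT for each measured carrier, by the membrane it is known to work in, with thick lines for the median of each group. The apical median was 1.24 and the basolateral median -0.14, while the dashed line marks the median of all measured genes at -0.18 and the dotted lines mark 2-fold.

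The heavy chain 4F2hc carries several light chains, and their make-up differed between the libraries although Slc3a2 itself did not reach 2-fold. The 5 light chains pooled here, Slc7a5, Slc7a6, Slc7a7, Slc7a8 and Slc7a11, summed to 152.7 FPKM in KO and 132.9 FPKM in WT. Slc7a15 was not part of this pool. Slc7a7 made up 57.7% of that sum in KO and 36.3% in WT. Slc7a11, the gene of the cystine and glutamate exchanger xCT, made up 20.0% in KO and 34.2% in WT. Slc7a5 made up 10.2% in KO and 15.9% in WT, Slc7a6 5.68% in KO and 10.3% in WT, and Slc7a8 6.44% in KO and 3.26% in WT. These shares are ratios within a library and do not move with the scaling between libraries. The Slc3a2 transcript was 1.27 times as abundant as the apical heavy chain Slc3a1 in KO and 4.85 times in WT.

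A like shift appeared among carriers that take up neutral amino acids. Slc6a19 made up 19.2% of the summed level of Slc6a19, Slc1a5, Slc1a4, Slc38a1 and Slc38a2 in KO and 2.73% in WT. The sum itself was 171.6 FPKM in KO and 180.9 FPKM in WT. Slc6a19 was at 0.812 times the level of Slc1a5 in KO and 0.0812 times in WT. The most abundant of the 5 was Slc38a1, the gene of the glutamine carrier SNAT1, in KO, and Slc1a5 in WT. Slc38a1 was at 42.8 FPKM in KO and 52.6 FPKM in WT (log2 ratio -0.29), and Slc1a4, the gene of the alanine, serine and cysteine exchanger ASCT1, at 18.9 FPKM in KO and 21.2 FPKM in WT (-0.16 as deposited, 0.01 with the TMM factor).

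**Figure D3:**
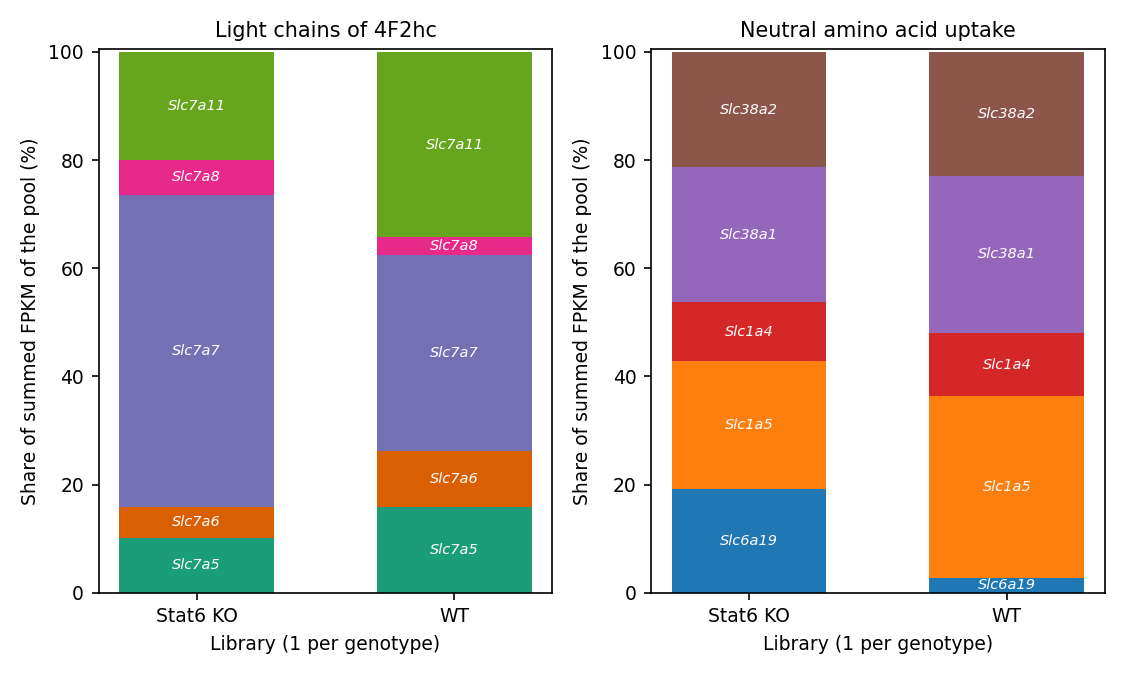
Stacked shares of summed FPKM, in percent, for 5 light chains of 4F2hc at left and for 5 carriers of neutral amino acids at right. The KO library is left of the WT library in each panel. Slc7a7 took 57.7% of its pool in KO and 36.3% in WT, and Slc6a19 took 19.2% in KO and 2.73% in WT.

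Over all 57 carriers the levels summed to 928.6 FPKM in KO and 757.3 FPKM in WT. Without the 8 past 2-fold, a choice that itself brings the libraries closer, the sums were 685.8 FPKM in KO and 690.4 FPKM in WT. The order of abundance also differed. In KO the 5 most abundant carriers were Slc6a8 at 120 FPKM, Slc3a2, Slc3a1, Slc7a7 and Slc6a6. In WT they were Slc3a2 at 126 FPKM, Slc6a8, Slc1a5, Slc38a1 and Slc7a7. Slc3a1 held place 3 in KO and place 10 in WT, and Slc6a19 place 10 in KO and place 22 in WT.

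The Slc6 family holds carriers of neurotransmitters and osmolytes beside those of amino acids. Slc6a4, the gene of the serotonin carrier SERT, was at 15.5 FPKM in KO and 7.14 FPKM in WT. Its log2 ratio was 1.02, with a counting interval of 1.92 to 2.45 for the fold of 2.17, an interval that reaches below 2-fold. Slc6a8, the gene of the creatine carrier, was at 119.6 FPKM in KO and 86.8 FPKM in WT (0.46). Slc6a6, the gene of the taurine carrier TauT, was at 67.2 FPKM in KO and 47.4 FPKM in WT (0.49). Slc6a9, the gene of the glycine carrier GlyT1, lay on the other side at 13.0 FPKM in KO and 17.0 FPKM in WT (-0.36). The 10 other Slc6 genes stayed below 1 FPKM in both libraries, among them Slc6a18, the neutral amino acid carrier of the kidney brush border, at 0.54 FPKM in KO and 0.58 FPKM in WT.

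Slc7a15 (Entrez gene 328059), which in mouse encodes ArpAT, a carrier that prefers aromatic amino acids, was at 4.72 FPKM in KO and 0.77 FPKM in WT. Its log2 ratio was 1.69, and it passed the minimum in KO alone. The estimate of about 178 reads in KO and 29 in WT gave a counting interval of 4.08 to 9.31 for the fold of 6.13. The pseudocount weighs on this gene, whose log2 ratio was 2.47 with a pseudocount of 0.1 and 0.75 with one of 5. Of the 10 measured Slc7 genes 3 were at least 2-fold higher, beside 2.44% of all measured genes. Log2 ratios above 0 were seen for 4 of the 10, and the median was -0.35.

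Carriers at the low end had smaller differences than those at the high end. Slc36a4, the gene of the proline and tryptophan carrier PAT4, had the lowest log2 ratio of all measured carriers, -0.71, at 1.32 FPKM in KO and 2.80 FPKM in WT. Slc7a11 was at 30.5 FPKM in KO and 45.5 FPKM in WT, a log2 ratio of -0.56 with a counting interval of 0.648 to 0.693 for the fold of 0.670. Slc1a2, the gene of the glutamate carrier EAAT2, was at 0.48 FPKM in KO and 1.20 FPKM in WT (-0.57). With a pseudocount of 0.1 its log2 ratio was -1.16, and Slc1a2, Slc15a3 and Slc36a4 then counted as at least 2-fold lower, where 5% of all genes did. Slc1a3, the gene of the glutamate carrier EAAT1, was at 1.51 FPKM in KO and 0.72 FPKM in WT (0.55).

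Carriers of the lysosome, which move amino acids and peptides from the lysosome to the cytosol, showed none past 2-fold among 4 measured, with a median of -0.19. Slc15a3, the gene of the histidine and peptide carrier PHT2, was at 0.77 FPKM in KO and 1.71 FPKM in WT (-0.61). Its relative Slc15a4, the gene of PHT1, was at 6.68 FPKM in KO and 7.58 FPKM in WT (-0.16 as deposited and 0.00 with the TMM factor). Slc38a9, whose protein senses arginine for the growth kinase complex mTORC1, was at 1.95 FPKM in KO and 2.17 FPKM in WT, with a log2 ratio of -0.10 that became 0.02 with the TMM factor. Slc38a7, the gene of the glutamine exporter SNAT7, was at 8.24 FPKM in KO and 9.81 FPKM in WT (-0.23).

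By family, the 6 measured Slc38 genes lay closest together, from -0.29 to -0.10, with none past 2-fold. They included Slc38a10, at 23.7 FPKM in KO and 28.9 FPKM in WT (-0.27), and Slc38a6, at 2.96 FPKM in KO and 3.69 FPKM in WT (-0.24). The other measured members were low and had log2 ratios below 0. Slc7a3, the gene of the basic amino acid carrier CAT3, was at 1.06 FPKM in KO and 1.52 FPKM in WT (-0.29). Slc7a4 was at 1.48 FPKM in KO and 2.37 FPKM in WT (-0.44). Slc43a3, which takes up purine bases and is no amino acid carrier despite its family, was at 1.29 FPKM in KO and 2.19 FPKM in WT (-0.48).

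By substrate, the at least 2-fold higher carriers were spread over several classes. They were 3 of 11 measured genes for neutral amino acids, 1 of 4 for both neutral and basic ones, 1 of 3 for peptides, 1 of 2 heavy chains, 1 of 4 for neurotransmitters and osmolytes and 1 of 4 with no substrate assigned in the list used. None of the 4 measured genes for acidic amino acids and none of the 2 for basic ones alone was past 2-fold, and their medians were -0.18 and -0.40. These calls use the pseudocount of 1, which weighs on low genes. Without it the KO to WT folds of the acidic carrier genes Slc1a3 and Slc1a2 were 2.1 and 0.4. Those of Slc15a3 for peptides and Slc36a4 for neutral amino acids were 0.45 and 0.471. Within the peptide class PepT1 was the one past 2-fold with the pseudocount, and Slc15a2, the gene of PepT2, was at 0.48 FPKM in KO and 0.51 FPKM in WT.

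The 22 carriers below the minimum reached at most 0.90 FPKM in KO and 0.94 FPKM in WT, both in Slc7a14, a lysosomal carrier of basic amino acids. Of these 22, 3 were listed at 0 in both libraries (Slc6a5, Slc15a5 and Slc36a3). Another 5 were listed at 0 in 1 library. Of them Slc6a13, which takes up GABA, had the highest value in the other library, at 0.19 FPKM in WT.

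Genes outside the carriers that respond to amino acid supply or sense it showed little difference. In a list of 12 genes of the amino acid response, which the kinase GCN2 and the transcription factor ATF4 drive when amino acids run short, none was past 2-fold and the median log2 ratio was -0.01. Atf4 was at 157 FPKM in KO and 165 FPKM in WT, and Asns, the asparagine synthetase, at 86.8 FPKM in KO and 106 FPKM in WT. Trib3, a pseudokinase induced in that response, was the highest at 21.8 FPKM in KO and 12.3 FPKM in WT (0.78). In a list of 16 genes of amino acid sensing at the lysosome, none of the 15 measured was past 2-fold and the median was -0.12, or 0.06 with the TMM factor. Its extremes were the sestrin gene Sesn1, at 12.1 FPKM in KO and 6.95 FPKM in WT (0.72), and the arginine sensor Castor1, at 0.55 FPKM in KO and 1.41 FPKM in WT (-0.64).

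In KO, 11 of 13 enterocyte markers were past 2-fold upward and none downward, beside 2.44% and 2.18% of all measured genes. The median log2 ratio of the markers was 1.51, beside 1.24 for the apical carriers. The summed level of the 13 markers was 18670 FPKM in KO and 5476 FPKM in WT, and none was at 0. The other 2 were Vil1, the gene of a structural protein of the microvillus, at 632 FPKM in KO and 425 FPKM in WT (0.57), and Ada, the gene of adenosine deaminase, at 8.80 FPKM in KO and 14.2 FPKM in WT (-0.63). How a carrier stood relative to these markers depended on the marker. The ratio of Slc6a19 to a marker was higher in KO than in WT for 12 of the 13 markers, that of Slc15a1 for 11, that of Slc3a1 for 9 and that of Slc7a9 for 3. Of the basolateral carriers, the ratio was higher in KO for 11 markers for Slc43a2 and for 2 each for Slc7a8 and Slc7a7. Set against Vil1, the ratio in KO was 4.48 times that in WT for Slc6a19, 4.03 times for Slc15a1 and 2.39 times for Slc3a1. Set against Fabp2, the gene of a fatty acid-binding protein, it was 1.19 times for Slc6a19, 1.07 times for Slc15a1 and 0.634 times for Slc3a1. More enterocytes in a culture and more carrier transcript per enterocyte cannot be told apart in bulk RNA, and the part of the enterocyte markers in the carrier differences was not tested. The 2 markers of ileal enterocytes went opposite ways, with the bile acid-binding protein gene Fabp6 at 122 FPKM in KO and 310 FPKM in WT and the bile acid carrier gene Slc10a2 at 29.2 FPKM in KO and 9.63 FPKM in WT.

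The counts that follow stand beside 2.44% of all measured genes at least 2-fold higher in KO and 2.18% lower. Of 7 markers of dividing cells 1 was at least 2-fold lower in KO, Mcm3, and their median log2 ratio was -0.61, or -0.42 with the TMM factor. Their sum was 225 FPKM in KO and 347 FPKM in WT, with Pcna the most abundant at 117 FPKM in KO and 179 FPKM in WT. The proliferation marker Mki67 was at 12.1 FPKM in KO and 12.8 FPKM in WT (-0.07 as deposited and 0.10 with the TMM factor). The 7 Lgr5 stem cell markers summed to 82.9 FPKM in KO and 157.9 FPKM in WT, with 2 at least 2-fold lower, Cd44 and Sox9, and a median of -0.35, or -0.19 with the TMM factor. Much of the gap was Cd44, at 28.8 FPKM in KO and 85.9 FPKM in WT, while Smoc2 was at 11.4 FPKM in KO and 9.88 FPKM in WT. Enteroendocrine markers, of hormone cells of which some release the serotonin that SERT takes up, summed to 402 FPKM in KO and 814 FPKM in WT. Of the 7, 3 were at least 2-fold lower and none was at 0. The 3 were Tph1, at 15.2 FPKM in KO and 62.7 FPKM in WT, Gcg and Nts. Goblet markers summed to 2385 FPKM in KO and 2037 FPKM in WT, with 1 of 7 higher and 1 lower, and Paneth markers to 1905 FPKM in KO and 1793 FPKM in WT, with 1 of 6 lower. Tuft markers summed to 8.94 FPKM in KO and 12.2 FPKM in WT, with none of 4 past 2-fold. The part of these cells in the carrier differences was not tested.

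Markers of cells outside the epithelium reached at most 6.32 FPKM in KO (Lyz2) and 17.7 FPKM in WT (Cd68), both of the leukocyte list. Leukocyte markers summed to 14.6 FPKM in KO and 36.2 FPKM in WT. Of 4 measured, 2 were at least 2-fold lower, beside 2.18% of all measured genes. Endothelial markers summed to 3.71 FPKM in KO and 9.62 FPKM in WT, with 1 of 3 lower. Stromal markers summed to 2.08 FPKM in KO and 4.29 FPKM in WT, and nerve and glia markers to 4.03 FPKM in KO and 4.28 FPKM in WT. The red blood cell gene Hba-a1 was at 1.21 FPKM in KO and 0.85 FPKM in WT. No marker of these lists was at 0 in either library, and their part in the carrier differences was not tested.

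**Figure D4:**
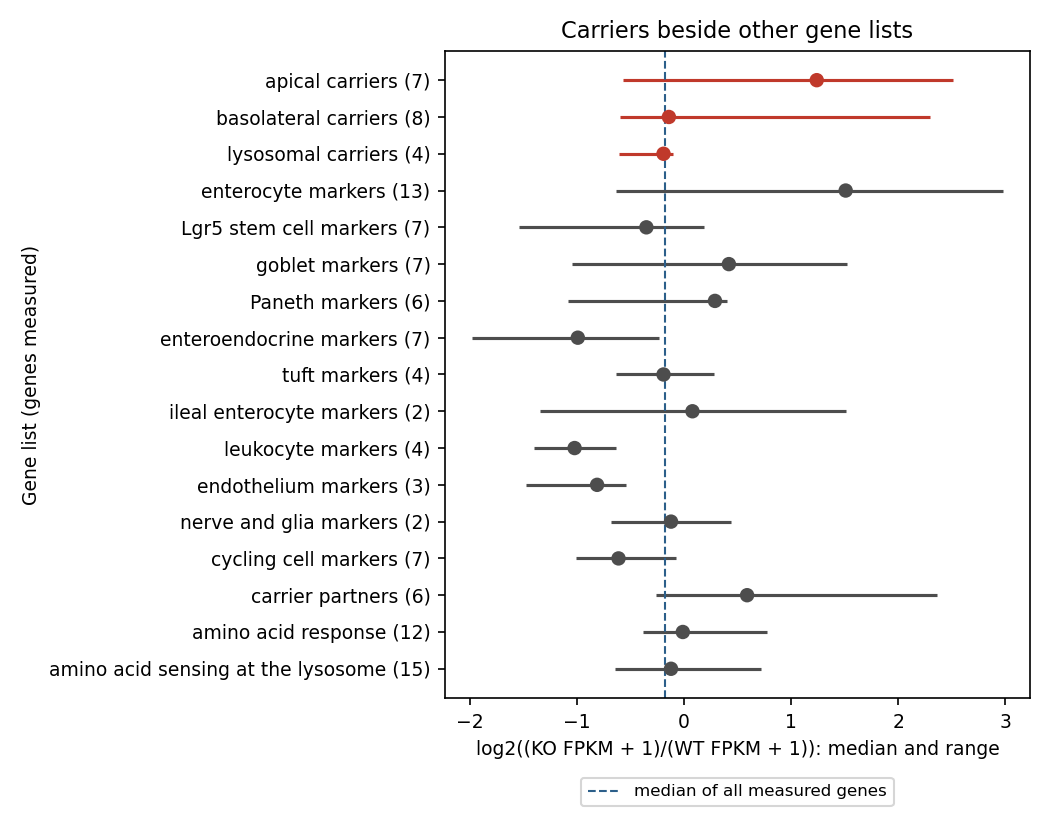
Median log2 ratio of KO to WT (points) and range from the lowest to the highest gene (lines) for carriers by membrane, in red, and for the other gene lists, in grey, with the number of genes measured in brackets. The apical carriers, at a median of 1.24, lie nearest to the enterocyte markers, at 1.51, and the carrier partners are at 0.59.

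Promoters of 3 carriers past 2-fold in KO are shown because STAT6 is a transcription factor that binds DNA letters of a known form. RefSeq (GRCm38.p6, a later build than the mm9 of the files) gave promoters for 42 of the 57 carriers. Printed are the 250 bases before the start of transcription, 5′ to 3′ on the gene's strand, with matches to a searched motif in capitals, for Slc6a19 (chr13:73692637-73692886, minus strand), Slc3a1 (chr17:85028097-85028346, plus strand) and Slc15a1 (chr14:121505255-121505504, minus strand).
Slc6a19: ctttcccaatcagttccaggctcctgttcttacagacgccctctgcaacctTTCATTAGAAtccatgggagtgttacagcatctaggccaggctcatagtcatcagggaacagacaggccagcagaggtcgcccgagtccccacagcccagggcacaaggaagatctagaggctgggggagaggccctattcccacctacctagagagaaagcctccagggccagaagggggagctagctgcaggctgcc
Slc3a1: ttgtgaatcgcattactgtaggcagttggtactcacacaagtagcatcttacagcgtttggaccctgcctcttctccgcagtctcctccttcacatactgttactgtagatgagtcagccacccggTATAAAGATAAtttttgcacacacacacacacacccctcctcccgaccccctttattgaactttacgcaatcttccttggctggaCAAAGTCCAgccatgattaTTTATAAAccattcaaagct
Slc15a1: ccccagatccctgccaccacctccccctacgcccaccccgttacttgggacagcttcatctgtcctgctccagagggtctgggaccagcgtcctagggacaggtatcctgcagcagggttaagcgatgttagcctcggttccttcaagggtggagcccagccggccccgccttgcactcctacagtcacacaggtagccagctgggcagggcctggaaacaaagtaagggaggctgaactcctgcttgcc

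In the Slc6a19 promoter the capitals mark the form that STAT6 prefers, TTC and GAA with any 4 bases between them, from 199 to 190 bases before the start. In the Slc3a1 promoter they mark the HNF4 letters CAAAGTCCA from 39 to 31 bases before the start, TATAAA (with one match on each strand near the start, overlapping) and the GATA letters AGATAA, which overlap an upstream TATAAA by 1 base. The Slc15a1 window held none of the 8 motifs searched on both strands. The form with 4 bases between was in a promoter of this length of 6.76% of all 27025 genes and of 3 of the 42 carriers, Slc6a19, Slc43a2 and Slc1a7. The general STAT form TTCNNNGAA was in 8.13% of genes and in 4 carriers, Slc1a3, Slc38a9, Slc7a1 and Slc7a11.

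The HNF4 letters were in 0.451% of genes and in 1 carrier, Slc3a1. The GATA letters were in 11.4% of genes and in 4 of the 42 carriers, Slc3a1, Slc7a9, Slc7a7 and Slc15a2. The windows of Slc7a9, Slc43a2 and Slc7a11 overlap annotated exons. The HNF1 letters GTTAAT were in 7.49% of genes and in 4 carriers, Slc36a1, Slc6a13, Slc7a15 and Slc7a7. The ATF4 letters TGATGNAA were in 3.91% of genes and in 2 carriers, Slc7a11 and Slc7a7. The CDX letters TTTATG were in 12.4% and in 1 carrier, Slc7a15, and TATAAA in 14.3% and in 6 carriers. A match describes the letters in this window and no binding was measured.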

How the data were processed

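Total RNA of 1 Stat6 KO and 1 WT culture was sequenced as single-end reads of 50 bases, per the labels. The authors deposited FPKM per gene, per the file headers, with 2 decimals. The submitters' processing notes name RSEM, Bowtie2, HISAT and build mm9, without versions or roles. Because FPKM is relative to all mapped reads, abundant genes that differ shift the rest.

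Tables were joined on Entrez number (Python 3.11.15, pandas 2.3.3). The log2 ratio used a pseudocount of 1, which understates differences of low genes, a minimum of 1 FPKM in at least 1 library and a threshold of 2-fold. No count test fits such tables. Depth was the number of reads, searched between 5000000 and 30000000, that brought most low values of short RNA genes within 0.1 read of a whole number (89.3% of 122 values in KO, 87.1% of 139 in WT). At the labels' mean of 59000000 reads, 111 of those 122 values in KO and 123 of 139 in WT would be multiples of 3 reads, and 1 in KO and 3 in WT single reads. Estimated reads used the longest GENCODE transcript, and exact binomial 95% intervals from them cover counting error only. Where shorter transcripts were expressed, the estimated reads are too high and the intervals too narrow. The TMM factor trimmed 30% of log ratios and 5% of levels at each end. The calculations were tested on simulated data.

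The members, the lists of membranes, substrates, partners and markers, and the motifs were chosen with earlier results of these data known, and the motifs after the levels were seen. Named carriers were all past 2-fold, all measured apical and basolateral ones and the 3 highest and lowest of each family. The others named had their levels described. A further gene that works with the carriers is not reported here.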

Additional observations from a re-analysis of the deposited data

How the results depend on the processing

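The count of carriers at least 2-fold higher in KO was 8, and 7 to 9 with a pseudocount of 0.1, no minimum level, a minimum of 1 FPKM in both libraries or of 5 FPKM in 1, the TMM factor, all genes centred on their median, or a 1.5-fold threshold. It was 5 with a pseudocount of 5, where 1.19% of all genes were higher, and 3 at a 4-fold threshold. The share of all genes higher was 3.1% with a pseudocount of 0.1 and 3.39% with all genes centred. It was 1.62% with no minimum level (54 carriers), 2.11% with 1 FPKM in both (31 carriers) and 2.52% with 5 FPKM in 1 (25 carriers). The count at least 2-fold lower was 0, and 3 with a pseudocount of 0.1, where 5% of all genes were lower, or a 1.5-fold threshold. The share of all genes was not computed at 1.5-fold or 4-fold. A larger pseudocount shrinks low genes by construction. The basolateral median of -0.14 became 0.94 with the narrow lists, which keep 4 of 9 genes. The measured genes that these lists leave out all had negative log2 ratios as deposited, so the rise follows from the choice of genes. The difference between apical and basolateral medians ranged from 0.85 with the narrow lists to 1.43 with a pseudocount of 0.1. Of 219 recomputed log2 ratios of 33 named carriers, 215 stayed within 1.5-fold. The exceptions were Slc15a1 with a pseudocount of 5 (1.61), and Slc1a2 and Slc7a15, given above. Only the pseudocounts could move a value that far. The minimum levels leave a log2 ratio as it is, and the scalings shift a gene by less than 1.5-fold. No setting could turn the sign of a carrier past 2-fold, so these numbers are no check of the differences. The sign of 6 carriers near 0 changed with the scaling (Slc15a4, Slc1a4, Slc36a1, Slc38a2, Slc38a9 and Slc3a2). With the TMM factor, 3.33% of all genes were higher and 1.59% lower. No library could be left out and no paired analysis was possible because there was 1 library per genotype.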
